A study of Mus musculus with 5 samples.

Results

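The axoneme is the microtubule core of a motile cilium, and its gene families were read here in mouse tracheal epithelium after transplantation of basal cells made from embryonic stem cells (iBCs). The members are the mouse genes of the deposited tables whose symbols begin with Dnah, Dnai, Cfap, Rsph, Drc or Tekt, together with Ccdc39, Ccdc40, Ccdc113, Ccdc114 and Ccdc151. They number 65 of 30907 mouse features. The rule goes by name and uses no measured value, though earlier results of these data were known when it was set. They were described in cells with at least 2 UMIs (unique molecular identifiers, each standing for 1 captured transcript) of Foxj1, the transcription factor that switches on the motile cilium programme. They were also described in the other epithelial cells of the same libraries, which should lack motile cilia.

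The donor-derived libraries (n = 2) hold live cells, positive for Calcein Blue and GFP, from the tracheas of 2 adult wild-type 129 X1/S1 mice that received 2% polidocanol, a detergent that strips the airway surface, and then iBCs. One recipient was taken on day 40 after transplantation and the other on day 56. The endogenous libraries (n = 2) hold the GFP-negative live cells of the same 2 tracheas, so the recipients' own cells there had been through the same injury. The control library (n = 1) holds live cells of the trachea of 1 mouse of the same strain with neither injury nor transplantation. Each recipient group is thus 1 animal per day, and day and animal cannot be told apart.

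A motile cilium has a ring of microtubule doublets around a central pair. Rows of dynein motors on the doublets, the outer and inner arms, slide them against each other, and radial spokes, the central apparatus and the nexin-dynein regulatory complex turn the sliding into a bend. Ruler proteins set the spacing of these parts along the doublet, and microtubule inner proteins, tektins among them, line the inside of its wall. In the trachea, multiciliated cells use this machinery to move mucus out of the airway, and inherited loss of single parts causes primary ciliary dyskinesia.

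On day 56 most axoneme genes of donor-derived Foxj1 cells were read at levels near those of resident cells, but Tekt1, Drc1, Dnah10 and the 3 Dnah7 genes were nearly missing, as they were in part of the donor-derived cells of day 40. The promoter sequences of 4 of these genes and of 3 relatives that were read in the same cells (Tekt4, Drc3 and Dnah5) are given first, because the genes come from the same families and differ so clearly in their values. Each runs from 250 bases before to 50 bases after a gene start in RefSeq (GRCm38.p6), 5′ to 3′ on the strand of the gene. Capitals mark GTTGCC and GTTGCT on either strand, the forms searched of the core letters that RFX transcription factors, known regulators of ciliary genes, bind in the X-box motif.
Tekt1, chr11:72361833-72362132, minus strand: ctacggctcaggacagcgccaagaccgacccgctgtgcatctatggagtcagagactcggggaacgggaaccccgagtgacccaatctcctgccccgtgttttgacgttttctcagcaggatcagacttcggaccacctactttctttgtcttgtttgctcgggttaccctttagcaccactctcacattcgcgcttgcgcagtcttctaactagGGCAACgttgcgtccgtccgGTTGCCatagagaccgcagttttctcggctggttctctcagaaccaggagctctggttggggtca
Drc1, chr5:30281143-30281442, plus strand: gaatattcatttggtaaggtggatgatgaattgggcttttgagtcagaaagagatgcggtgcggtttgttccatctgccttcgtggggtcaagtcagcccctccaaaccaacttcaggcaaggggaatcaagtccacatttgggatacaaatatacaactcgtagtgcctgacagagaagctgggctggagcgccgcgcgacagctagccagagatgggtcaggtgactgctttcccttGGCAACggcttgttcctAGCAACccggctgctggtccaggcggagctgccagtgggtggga
Dnah10, chr5:124724835-124725134, plus strand: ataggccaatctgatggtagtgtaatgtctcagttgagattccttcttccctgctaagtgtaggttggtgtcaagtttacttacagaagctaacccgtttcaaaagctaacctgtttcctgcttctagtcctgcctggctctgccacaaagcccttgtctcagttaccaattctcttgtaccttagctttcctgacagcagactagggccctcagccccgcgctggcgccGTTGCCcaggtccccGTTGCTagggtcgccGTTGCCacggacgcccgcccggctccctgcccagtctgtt
Dnah7a, chr1:53706735-53707034, minus strand: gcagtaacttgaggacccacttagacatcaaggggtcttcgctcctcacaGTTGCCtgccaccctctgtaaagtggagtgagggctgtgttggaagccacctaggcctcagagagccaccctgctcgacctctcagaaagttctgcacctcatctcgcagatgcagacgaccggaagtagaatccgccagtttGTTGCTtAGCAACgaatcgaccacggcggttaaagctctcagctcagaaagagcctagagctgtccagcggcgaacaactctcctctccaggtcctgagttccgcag
Tekt4, chr17:25471340-25471639, plus strand: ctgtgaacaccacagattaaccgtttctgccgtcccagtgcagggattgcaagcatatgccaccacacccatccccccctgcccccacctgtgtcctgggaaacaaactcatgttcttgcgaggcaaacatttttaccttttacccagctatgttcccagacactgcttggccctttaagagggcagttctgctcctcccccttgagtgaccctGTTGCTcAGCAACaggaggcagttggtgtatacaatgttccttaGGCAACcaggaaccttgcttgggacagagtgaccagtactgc
Drc3, chr11:60353130-60353429, plus strand: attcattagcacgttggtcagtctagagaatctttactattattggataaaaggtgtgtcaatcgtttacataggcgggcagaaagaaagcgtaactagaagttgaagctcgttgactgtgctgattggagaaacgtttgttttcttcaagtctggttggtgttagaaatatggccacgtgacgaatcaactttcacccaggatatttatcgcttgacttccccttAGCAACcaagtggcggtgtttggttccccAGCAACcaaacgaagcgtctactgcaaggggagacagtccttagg
Dnah5, chr15:28203516-28203815, plus strand: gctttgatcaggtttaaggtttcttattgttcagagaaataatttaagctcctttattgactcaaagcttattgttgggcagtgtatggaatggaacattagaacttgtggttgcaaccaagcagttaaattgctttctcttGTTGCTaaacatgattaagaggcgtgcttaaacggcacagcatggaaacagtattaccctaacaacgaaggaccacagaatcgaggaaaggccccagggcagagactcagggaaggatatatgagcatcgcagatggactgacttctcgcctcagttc

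RefSeq promoters were matched by symbol for 54 of the 65 members, with 61 gene starts in all. GTTGCC was found at 32.8% of the member starts, against 12.5% of all 32817 promoters of the same length, and GTTGCT at 54.1% of the member starts, against 14.8% of all. The 6 nearly missing genes each held GTTGCC at a listed start, as did 12 of the other 48 matched members. With GTTGCT counted too, the figures were 6 of 6 and 33 of 48, and all 7 sequences above hold at least 1 run of either form. Of all 26994 genes with a promoter, 14.1% held GTTGCC and 27.9% held either form. The Dnah7 genes are near copies of each other, so the 6 are not independent. Member promoters also held more CpG pairs (C followed by G), with a median of 12 against 7 in all promoters. The counts make no allowance for this. The 6 genes were grouped by their measured levels, so the counts are a description with no test, and a match is not a site of binding.

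After filtering, the libraries kept 1693 and 1731 donor-derived, 1300 and 1219 endogenous and 611 control cells (day 40, then day 56), out of 25569394, 21383107, 17756037, 17732266 and 16580940 deposited UMIs. Any pair of libraries shared at most 2 cell barcodes. Foxj1 reached 2 UMIs in 59 and 114 donor-derived cells (day 40, then day 56), in 211 and 179 endogenous cells and in 157 control cells. Their median depth was 16128 and 11704 UMIs in donor-derived cells, 12849 and 15924 in endogenous cells and 8861 in control cells. EGFP transcripts were seen in 28 of 59 and 70 of 114 donor-derived Foxj1 cells, and in 0 of the endogenous and control ones.

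The donor-derived Foxj1 cells of day 40 stood apart from the other sets and were of mixed kind. Clusters of all cells were named ciliated-like from 10 markers that are no members of these families, though Foxj1 is among them. The clusters themselves were made from variable genes, from which members were not left out. The place of Foxj1 cells in them is therefore partly built in. Of the 59 cells, 22 lay in a ciliated-like cluster made up of donor-derived cells alone, 18 in the ciliated-like clusters that also held the endogenous and control cells, and 19 outside them. The 19 had a median of 32 UMIs of Krt5, a keratin of basal cells, and members made up only 0.0630% of their UMIs. On day 56, 108 of the 114 cells lay in the donor-derived ciliated-like cluster, 3 in the others and 3 outside. The ciliated-like clusters held 206 of 211 and 176 of 179 endogenous Foxj1 cells and 150 of 157 control ones. Markers of basal cells summed to 4175 CPM (counts scaled to 1000000 UMIs) in the donor-derived Foxj1 cells of day 40, with all 10 detected, against 317 in those of day 56, 379 and 215 in endogenous cells and 261 in control cells. Within ciliated-like clusters the sum on day 40 was 691 CPM. Markers of secretory cells summed to 57772.5 and 38609 CPM in donor-derived Foxj1 cells, against 50146 and 62740 in endogenous cells, with 69800 in the control. Immune markers summed to 718 and 175 CPM in donor-derived cells, against 2003 and 4051 in endogenous cells, with 1732 in the control. Of the 10 immune markers, 8 and 9 were at 0 in donor-derived cells, 3 and 1 in endogenous cells and 7 in control cells. Few markers thus carried the donor-derived and control sums. Lyz2, on the immune list, was also among the 10 top genes of a secretory-like cluster. The part of free RNA or mixed cells in these sums was not tested. All 5 neuroendocrine and all 3 cartilage markers were at 0 in every set.

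Summed over the 65 members, axoneme transcripts made up 0.614% of UMIs in donor-derived Foxj1 cells on day 40 and 1.11% on day 56, 1.26% and 1.21% in endogenous cells, and 1.18% in control cells. The donor-derived mean was 0.860% ± 0.348 and the endogenous mean 1.23% ± 0.0327 (SD, n = 2 each), with no overlap between the libraries of the 2 groups. Restricted to ciliated-like clusters, the donor-derived shares were 0.845% and 1.17% and still lay below the endogenous 1.28% and 1.22%. The median cell held UMIs of 36 and 37 different members in the donor-derived sets, of 45 and 47 in the endogenous sets and of 41 in the control. When cells were thinned to 5000 UMIs, these medians were 20 and 27 in the donor-derived sets, 33 and 31 in the endogenous sets and 32 in the control. The sum over the members has no test.

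**Figure D1:**
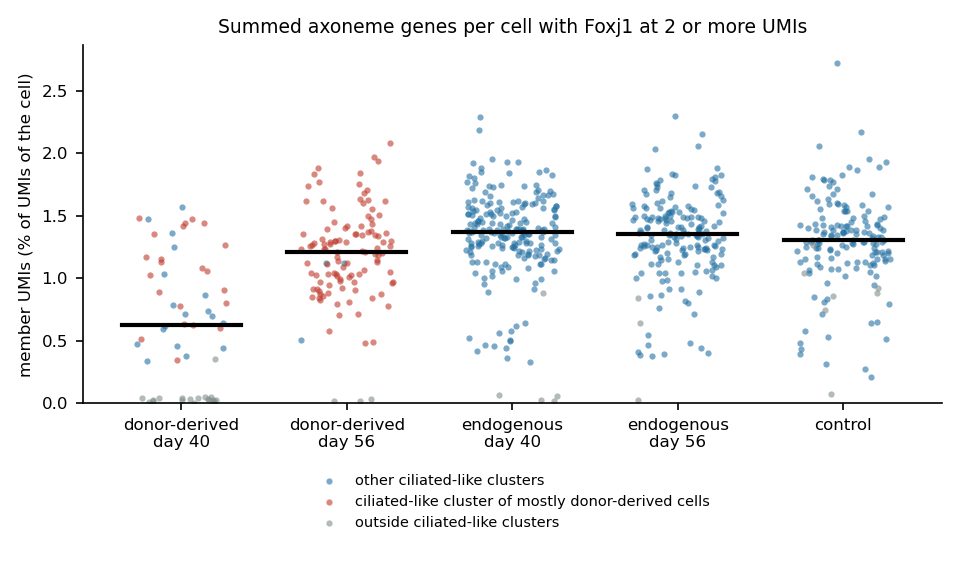
Share of each cell's UMIs that belong to axoneme genes (vertical axis, percent) for every cell with Foxj1 at 2 or more UMIs, by library. Points are cells coloured by cluster and bars are library medians, which were 0.625% and 1.21% in donor-derived, 1.37% and 1.35% in endogenous and 1.31% in control cells; the grey points near 0 on day 40 are the cells outside ciliated-like clusters.

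Cells with and without Foxj1 differed sharply in these genes. Over all epithelial cells, members reached 0.2% of UMIs in 525 of 528 cells with 5 or more Foxj1 UMIs, in 139 of 149 with 3 to 4, in 28 of 42 with 2, in 35 of 134 with 1 and in 20 of 5059 with 0. The library of donor-derived cells from day 40 differed at the low end. There, 0 of 11 cells with 2 Foxj1 UMIs and 5 of 11 with 3 to 4 reached that share, against 10 of 12 and 34 of 35 in the endogenous library of the same recipient.

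Outer arm dyneins power the stroke. Dnah5, an outer arm heavy chain, had 485 and 1041 CPM in donor-derived Foxj1 cells of day 40 and day 56, against 1212 and 1140 CPM in endogenous ones, with 936 CPM in the control (CPM scaled by TMM, which corrects library totals for composition). The day 40 donor-derived library was the low one and that of day 56 lay just below the endogenous library of its recipient. Dnah9, the second heavy chain of the arm, had 179.7 and 334 CPM in donor-derived cells, against 418 and 407 CPM in endogenous cells. Dnaic2, an intermediate chain, had 84.2 and 149 CPM in donor-derived cells, against 180.4 and 162 CPM in endogenous ones. Both were below the endogenous libraries in each donor-derived library. The 9 outer arm members summed to 960.1 and 1895 CPM in donor-derived cells, against 2251 and 2121 CPM in endogenous ones, with 1862 CPM in the control. Within ciliated-like clusters, donor-derived cells had 1343 and 1966 CPM, against 2287 and 2150 CPM in endogenous ones, with 1899 CPM in the control. The day 40 donor-derived values by role, here and below, include the 19 cells outside those clusters.

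Inner arm dyneins shape the bend, and here the families divided. Dnah12 had 239 and 464 CPM in donor-derived cells, against 508 and 514 CPM in endogenous cells, and Dnah6 had 131 and 276 CPM in donor-derived cells, against 341 and 329 CPM in endogenous ones. Dnah3 had 95.5 and 188 CPM in donor-derived cells, against 379 and 365 CPM in endogenous ones, with 273 CPM in the control, and both donor-derived libraries lay below all others. Dnah10, a heavy chain of the 2-headed inner arm, had 33.0 and 2.60 CPM in donor-derived cells, against 138 and 137 CPM in endogenous ones, with 115 CPM in the control. Dnah2, its partner in that arm, had 29.5 and 50.7 CPM in donor-derived cells, against 76.7 and 88.7 CPM in endogenous ones, with 47.9 CPM in the control. Dnah10 was thus nearly absent on day 56 while Dnah2 was not. The 10 inner arm members summed to 639.8 and 1089 CPM in donor-derived cells, against 1803 and 1777 CPM in endogenous ones, with 1453 CPM in the control.

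The ruler, the nexin-dynein regulatory complex and the regulators of the inner arm gave a similar division. Ccdc39, the ruler protein, had 107 and 111 CPM in donor-derived cells, against 258 and 289 CPM in endogenous ones, with 283 CPM in the control. Ccdc40, which works with it, had 121 and 245 CPM in donor-derived cells, against 231 and 211 CPM in endogenous ones, with 182 CPM in the control. The donor-derived libraries were therefore both low for Ccdc39 but lay on either side of the endogenous ones for Ccdc40. Drc1, the base plate of the nexin link, had 84.2 and 3.90 CPM in donor-derived cells, against 297 and 260 CPM in endogenous ones, with 298 CPM in the control, whereas Drc3 had 187 and 354 CPM in donor-derived cells, against 309 and 293 CPM in endogenous ones, with 289 CPM in the control. Cfap43 had 150.2 and 253 CPM in donor-derived cells, against 484 and 436 CPM in endogenous cells, and its partner Cfap44, known with it from the tether of the inner arm in Tetrahymena, had 210.1 and 416 CPM in donor-derived cells, against 413 and 424 CPM in endogenous ones.

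Radial spoke members as a sum lay below the resident cells on day 40 and above them on day 56. Rsph1, a spoke head protein, had 405 and 893 CPM in donor-derived cells, against 682 and 661 CPM in endogenous ones, with 816 CPM in the control. Rsph9, also of the spoke head, had 230.0 and 461 CPM in donor-derived cells, against 330 and 341 CPM in endogenous cells. Cfap206, placed at the spoke base in Tetrahymena, had 174 and 303 CPM in donor-derived cells, against 350.0 and 338 CPM in endogenous cells. For Rsph1 and Rsph9 the donor-derived library of day 40 was the lowest of the 5 and that of day 56 the highest. The 10 spoke members summed to 1079 and 2211 CPM in donor-derived cells, against 1866 and 1844 CPM in endogenous ones, with 1905 CPM in the control. The 6 central apparatus members summed to 429 and 759 CPM in donor-derived cells, against 1028 and 978 CPM in endogenous ones, with 829 CPM in the control. Among them Cfap54 had 109 and 153 CPM in donor-derived cells, against 348 and 343 CPM in endogenous ones, with 262 CPM in the control. Cfap65 had 115 and 207 CPM in donor-derived cells, against 259 and 254 CPM in endogenous ones, and Cfap69 had 85.1 and 174 CPM in donor-derived cells, against 146 and 135 CPM in endogenous cells.

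Microtubule inner proteins differed widely among themselves. Tekt1 had 115 and 2.60 CPM in donor-derived cells, against 314 and 318 CPM in endogenous ones, with 301 CPM in the control. Tekt4, another tektin, had 163 and 311 CPM in donor-derived cells, against 263 and 275 CPM in endogenous ones, with 286 CPM in the control. Tekt2 had 5.21 and 7.15 CPM in donor-derived cells, against 37.4 and 24.3 CPM in endogenous ones, with 49.1 CPM in the control, and Cfap53 had 64.2 and 59.2 CPM in donor-derived cells, against 161 and 182 CPM in endogenous ones, with 186 CPM in the control. Both donor-derived libraries were low for Tekt2 and Cfap53, and only that of day 56 lacked Tekt1 almost fully. Cfap126 (365 and 739 CPM in donor-derived cells, against 613 and 609.7 CPM in endogenous ones) and Cfap45 (229 and 450.5 CPM in donor-derived cells, against 362 and 361 CPM in endogenous ones) lay on either side of the endogenous libraries. Rsph6a and Dnah2os had 0 UMIs in all Foxj1 cells, and Dnah14, Dnah17 and Tekt5 were under 2 CPM in each library, and these 5 were not tested.

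The 2 donor-derived and 2 endogenous libraries were compared with edgeR's quasi-likelihood test. Of the 60 members with enough counts to be tested, 0 were called higher and 0 lower at an adjusted p under 0.05 (Benjamini-Hochberg over 10597 genes), where 0.302% of all genes were called higher and 0.189% lower. At an unadjusted p under 0.05 there were 22 lower and 0 higher members (8.71% and 9.38% of all genes), and DESeq2 called 7 lower and 0 higher (1.76% and 1.93% of all genes). The median log2 fold change was -0.59 over the tested members and 0.03 over all genes. It was negative for 56 members and positive for 4. By role, the median was -1.39 for the inner arm (9 of 9 negative), -0.76 for the ruler, nexin and regulator group (11 of 11), -0.66 for microtubule inner proteins (11 of 11), -0.63 for the central apparatus (6 of 6), -0.59 for the outer arm (7 of 8), -0.26 for radial spokes (8 of 9) and -0.14 for the other members (4 of 6). The smallest adjusted p was 0.053, for Cfap53 (log2 fold change -1.48 ± 0.18 SE), followed by 0.063 for Ccdc39 (-1.33 ± 0.19) and 0.072 for Tekt2 (-2.28 ± 0.37) in edgeR. The largest changes had wide errors, with the 2 donor-derived libraries far apart, such as Dnah10 at -3.05 ± 0.78 (edgeR, adjusted p = 0.15) and Tekt1 at -2.46 ± 1.18 (edgeR, adjusted p = 0.35).

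The count of calls turned on the cells taken and on single libraries. Restricted to Foxj1 cells of ciliated-like clusters, the same edgeR test called 7 of 60 members lower and 0 higher, where 1.89% of all genes were called lower and 1.93% higher. The 7 that fell were Tekt2 (log2 fold change -2.16 ± 0.37 SE, adjusted p = 0.017), Cfap53 (-1.23 ± 0.21, 0.017), Dnah3 (-1.19 ± 0.21, 0.019), Cfap54 (-1.17 ± 0.17, 0.0083), Ccdc39 (-1.08 ± 0.19, 0.019), Cfap43 (-0.98 ± 0.19, 0.026) and Ccdc113 (-0.80 ± 0.17, 0.036). In that fit the median was -0.37 over the members and 0.01 over all genes, with 45 members negative and 15 positive. With the recipient as a block, over all Foxj1 cells, edgeR called 2 members lower, Tekt2 (adjusted p = 0.037) and Cfap53 (adjusted p = 0.030), where 0.915% of all genes were lower and 1.25% higher. Leaving out the donor-derived library of day 40 gave 24 lower and 4 higher members in edgeR (9.38% and 8.21% of all genes), and leaving out that of day 56 gave 50 lower and 0 higher (10.1% and 10.8% of all genes), with the lone library taken to vary like the endogenous ones. Leaving out either endogenous library gave 0 members and 0 genes of all tested in either direction.

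Under the other settings 0 members were called higher, and the number called lower stands here beside the shares of all genes called lower and higher. It was 0 without TMM (0.142% and 0.302%), 1 with DESeq2 size factors (0.321% and 0.349%), 4 without the filter on low counts (0.824% and 0.533%) and 1 with doublets kept (0.346% and 0.383%). It was 0 with Foxj1 at 1 or more UMIs (0% and 0%), 4 at 3 or more (1.04% and 0.954%), 8 over all cells of ciliated-like clusters (1.9% and 1.87%) and 9 with cells thinned (2.75% and 2.04%). It was 0 with donor-derived cells limited to those with EGFP (0% and 0.0193%) and 7 in ciliated-like clusters with the recipient as a block (2.19% and 2.4%). Those 7 included Dnah2 (edgeR, log2 fold change -0.86 ± 0.22 SE, adjusted p = 0.037) and not Ccdc113, whose call ended with the block. The thinned setting differed in its cells as well as in depth, since Foxj1 had to reach 2 UMIs after thinning. That kept 31 of 59 and 87 of 114 donor-derived cells, and 164 of 211 and 142 of 179 endogenous ones.

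The fold between the libraries of a single recipient shows how far the days differed. At a mean of 20 CPM or more, 53 members could be compared. On day 40, 34 of 53 members (64.2%) were at least 2-fold lower in donor-derived than in endogenous Foxj1 cells, against 7.53% of all genes, and in ciliated-like clusters 13 of 53 (24.5%), against 3.78%. On day 56, 10 of 53 (18.9%) were at least 2-fold lower, against 4.63% of all genes, and 6 of 53 (11.3%) at least 10-fold lower, against 1.06%. No member was at least 10-fold lower on day 40, where 0.124% of all genes were. In ciliated-like clusters of day 56 the counts were also 10 (4.92% of all genes) and 6 (1.15%), and on day 40 none was 10-fold lower there (0.0315%). The number at least 2-fold higher was 0 of 53 throughout, against 6.04% of all genes on day 40 and 2.94% on day 56, and 3.25% and 2.57% in ciliated-like clusters. With the 6 genes set aside, the other 47 members ranged on day 56 from 0.299 (Tekt2) to 2.00 (Cfap157) times the endogenous level within ciliated-like clusters, with a median of 0.920, and 20 of them were higher and 27 lower. Each fold within a recipient rests on 1 library a side.

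**Figure D2:**
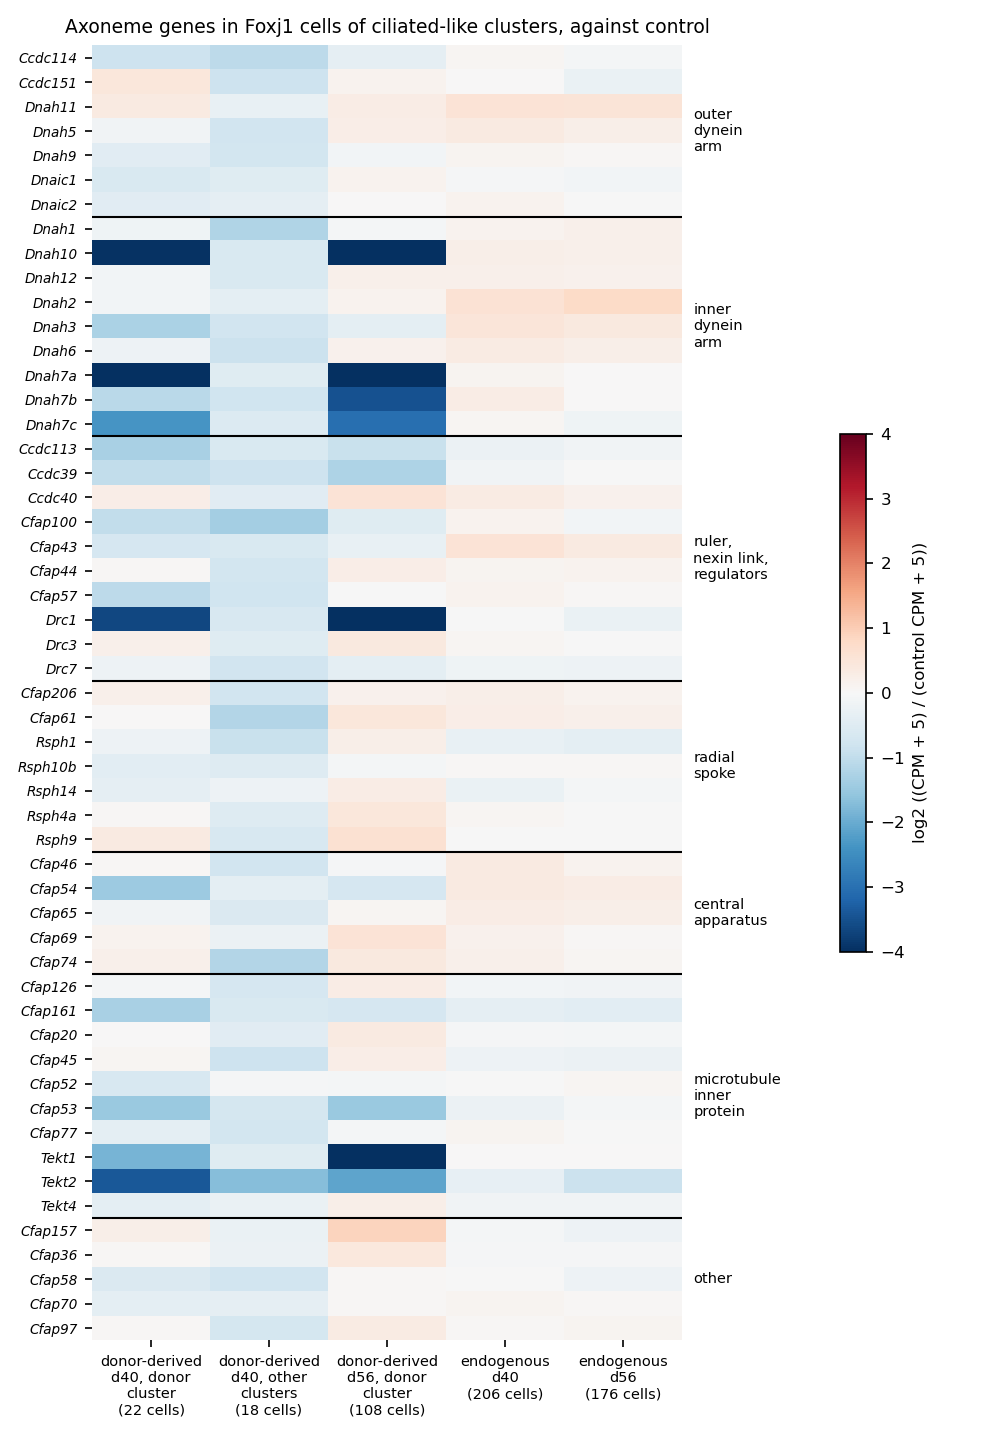
Level of 53 axoneme genes (rows, grouped by role) in Foxj1 cells of ciliated-like clusters, as log2 ratio to the control library with 5 CPM added and colours capped at 4 either way. The 3 left columns are donor-derived (d40 and d56 are days, and donor cluster is the ciliated-like cluster of donor-derived cells), followed by endogenous day 40 and day 56. Tekt1, Drc1, Dnah10 and the Dnah7 genes stand out in the donor cluster, where the paler Tekt1 cell of day 40 comes from 29 UMIs of a single cell.

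Tekt1, Dnah7b, Ccdc39, Ccdc40, Drc3, Tekt4, Cfap157, Rsph3a and Rsph3b fall outside the rule for named genes and were added after their values were seen, as was the grouping of the 6. On day 56 Tekt1 (chr11:72344722-72362442, GRCm38, minus strand) had 4 UMIs in the 114 donor-derived Foxj1 cells and 994 in the 179 endogenous ones, a level 122 times lower (exact 95% interval 47.6 to 449.9, for counting error only). Drc1 (chr5:30281388-30366695, plus strand) had 6 donor-derived and 811 endogenous UMIs and was 66.5 times lower (30.4 to 182). Dnah10 (chr5:124725085-124834308, plus strand) had 4 donor-derived and 428 endogenous UMIs and was 52.7 times lower (20.4 to 194). Dnah7a (chr1:53397006-53706784, minus strand) had 2 donor-derived and 336 endogenous UMIs, an endogenous to donor-derived ratio of 82.7 (22.7 to 686), and Dnah7b (chr1:46066315-46373546, plus strand) had 2 donor-derived and 187 endogenous UMIs, a ratio of 46.0 (12.6 to 383). Dnah7c (chr1:46425592-46807476, plus strand) had 0 UMIs in donor-derived cells, against 97 in endogenous ones, and was at least 15.9-fold lower when its library is set at the floor of 3 counts, or 12.7-fold by the exact 95% limit used for the others. The 3 Dnah7 genes are near copies of each other, so the split of reads among them is uncertain, while all 3 were low together.

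Per cell, these genes were mostly either unseen or seen about as often as in resident cells. In the donor-derived ciliated-like cluster, Tekt1 was seen in 1 of 22 cells (day 40) and 1 of 108 cells (day 56), but in 17 of the 18 donor-derived cells of day 40 in the other ciliated-like clusters, in 197 of 206 and 171 of 176 endogenous cells and in 135 of 150 control cells. Drc1 followed with 1 of 22, 2 of 108 and 16 of 18 donor-derived cells, 193 of 206 and 166 of 176 endogenous cells and 139 of 150 control cells. Dnah10 was seen in 1 of 22, 2 of 108 and 14 of 18 donor-derived cells, against 161 of 206 and 155 of 176 endogenous ones and 97 of 150 in the control. In the same donor-derived cells Tekt4 was seen in 21 of 22, 101 of 108 and 17 of 18, and Dnah5 in all of them. After thinning to 5000 UMIs, Tekt1 was seen in 23.7% and 0.893% of donor-derived Foxj1 cells, against 75.1% and 73.4% of endogenous ones, with 76.4% in the control (unthinned, 32.2% and 1.79% of donor-derived cells, against 93.8% and 97.2% of endogenous ones, with 89.8% in the control). In other epithelial cells, at median depths of 9879 to 12667 UMIs, Tekt1 was seen unthinned in 0.129% and 0% of donor-derived ones, against 0.638% and 0.840% of endogenous ones, with 0.225% in the control. The unthinned share in day 56 donor-derived Foxj1 cells lay above each of these, but it rests on few cells. Of its Tekt1 UMIs, 3 came from 1 cell in the ciliated-like clusters that also held resident cells. In the donor-derived cluster, 1 of 108 cells held 1 UMI (0.926%, exact interval 0.0234% to 5.05%). That interval includes each of the shares above 0 in other epithelial cells, so the difference is not clear. The clusters were made from all variable genes, so their difference in these genes is a description.

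**Figure D3:**
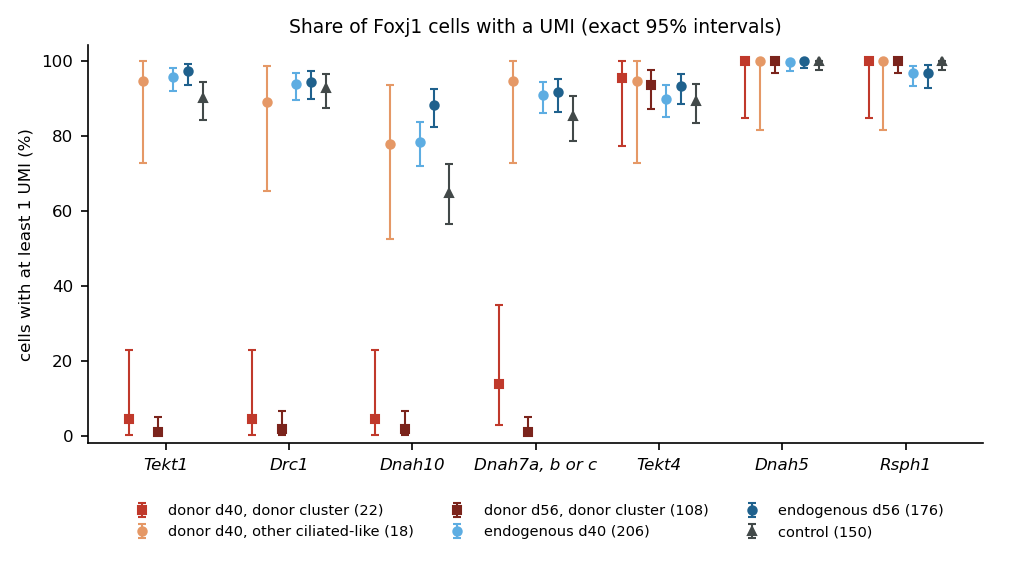
Share of Foxj1 cells with at least 1 UMI (vertical axis, percent, with exact 95% intervals) for 4 nearly missing genes or gene groups and 3 members that were read throughout. Squares are donor-derived cells of the donor-derived ciliated-like cluster (d40 and d56 are days), and circles and the triangle are the other sets, with cell numbers in the legend; the squares lie at 13.6% or less for the first 4 and at 93.5% or more for the last 3.

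The division was also described without clusters. Cells were kept if the other 59 members made up at least 0.2% of their UMIs, and for each it was counted how many of Tekt1, Drc1, Dnah10 and the Dnah7 genes together were seen, from 0 to 4. On day 56, 110 of 111 donor-derived cells held 0 or 1 of the 4 and 1 held 3 or 4. The 4 were grouped by their low levels in these same day 56 cells, so that count largely restates the choice of genes. On day 40, 21 of 41 donor-derived cells held 0 or 1 and 19 held 3 or 4. In endogenous cells 3 of 207 and 1 of 178 held 0 or 1, and in control cells 4 of 155. Among the day 40 donor-derived cells, EGFP was seen in 11 of the 21 with 0 or 1 and in 8 of the 19 with 3 or 4, and the median depth was 12783 UMIs in the first set and 27698 in the second. The other members made up 1.06% of UMIs in the median of the first set and 0.678% in the second, after the minimum of 0.2% had left out 18 of the 59 cells. Reg3g, an antimicrobial lectin outside these families, is 1 of the 10 secretory markers. It was seen in 18 of 18 day 40 donor-derived cells in the other ciliated-like clusters. In the donor-derived cluster it was seen in 2 of 22 cells of day 40 and 0 of 108 of day 56. In ciliated-like clusters it was seen in 192 of 206 and 149 of 176 endogenous cells, with 123 of 150 in the control. Scgb1a1, another secretory marker, was seen in 18 of 18 and 22 of 22 of those day 40 donor-derived cells. It was also seen in 206 of 206 and 176 of 176 endogenous cells of ciliated-like clusters, so its detection could not divide cells. The other secretory markers were not counted per cell. Both genes fall outside the rule for named genes. Whether the day 40 cells that carried the genes were donor cells, resident cells within the sort or doublets cannot be told apart, which bears on each value of that library. The part of depth in this division on day 40 was not tested.

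**Figure D4:**
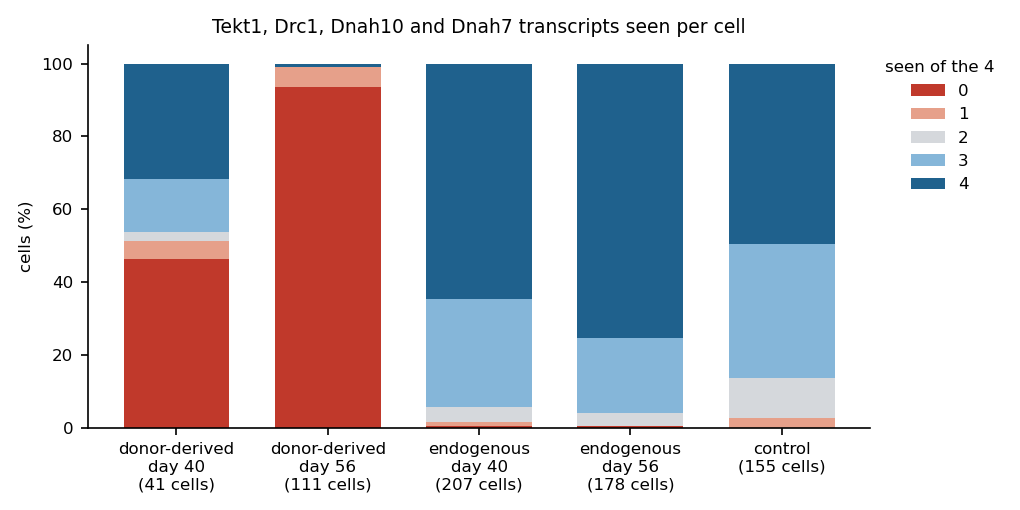
Share of ciliated cells (vertical axis, percent) by how many of Tekt1, Drc1, Dnah10 and the Dnah7 genes were seen in the cell, from 0 (red) to 4 (dark blue), for cells in which the other members made up 0.2% of UMIs or more. On day 56, 110 of 111 donor-derived cells held 0 or 1, and the day 40 library was divided into 21 with 0 or 1 and 19 with 3 or 4.

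Against the uninjured control, which is 1 library and allows no test, endogenous Foxj1 cells stayed close. Of 53 members, 0 were at least 2-fold higher and 0 at least 2-fold lower in both endogenous libraries, against 1.12% and 0.25% of all genes. The median member stood at 1.09 and 1.04 times the control level. The members furthest above it in both endogenous libraries were Dnah2 (1.60 and 1.85 times), Dnah11, Cfap43, Dnah3, Cfap54 and Dnah6, and those furthest below were Tekt2 (0.761 and 0.495 times), Cfap161, Rsph1, Cfap45, Drc7 and Ccdc113. In donor-derived cells the medians were 0.514 and 0.983 times the control. The members Dnah7a, Dnah7b, Dnah7c, Ccdc39, Tekt2, Drc1, Dnah10, Ccdc113, Tekt1 and Cfap53, were at least 2-fold lower in both donor-derived libraries (10 of 53, 18.9%, against 2.61% of all genes), and 0 were 2-fold higher (2.36% of all genes). These comparisons use the same control, and the donor-derived ones the same cells as the edgeR test.

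Ciliary genes outside these families were read from lists of regulators, dynein assembly factors, other arm, central, nexin, spoke and inner proteins and intraflagellar transport. Of 84 listed genes, 83 were in the files and 79 could be tested, and edgeR called 0 in either direction, with 10 lower and 2 higher at an unadjusted p under 0.05 (8.71% and 9.38% of all genes) and 3 lower and 1 higher by DESeq2 (1.76% and 1.93%). Near-absence on day 56 was not limited to the axoneme families: of 75 list genes at a mean of 20 CPM or more, 2 (2.67%, against 1.06% of all genes) were at least 10-fold lower in donor-derived than in endogenous cells. They were Spag16, of the central apparatus, and Efcab6, a microtubule inner protein. Spag16 had 66.0 and 1.95 CPM in donor-derived cells, against 293 and 267 CPM in endogenous ones, with 233 CPM in the control. Efcab6 had 6.08 and 0.65 CPM in donor-derived cells, against 40.1 and 36.5 CPM in endogenous ones, with 37.9 CPM in the control. Dynein assembly factors had a median log2 fold change of -0.23 (11 of 12 negative), other central apparatus genes -0.66 (7 of 8 negative) and intraflagellar transport genes -0.13 (15 of 19 negative). Foxj1 had 393 and 560.3 CPM in donor-derived cells, against 636 and 625 CPM in endogenous ones, with 596 CPM in the control. The cells were chosen by Foxj1 at 2 or more UMIs, so its levels follow in part from that choice. Foxj1 was 1 of the 79 list genes tested, and its own test is no evidence on the groups. Gmnc, an early inducer of the multiciliated fate, and Ccno, which acts in centriole amplification, had the smallest adjusted p of the regulators and were picked for that. Gmnc had 12.2 and 7.15 CPM in donor-derived cells, against 39.7 and 42.9 CPM in endogenous ones, with 20.7 CPM in the control (edgeR, log2 fold change -2.13 ± 0.29 SE, adjusted p = 0.062). Ccno had 25.2 and 44.9 CPM in donor-derived cells, against 5.72 and 4.16 CPM in endogenous ones, with 28.4 CPM in the control (edgeR, log2 fold change 2.83 ± 0.39 SE, adjusted p = 0.063).

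In other epithelial cells (no Foxj1 UMI, in epithelial clusters not named ciliated-like), members made up 0.0160% and 0.0149% of UMIs in donor-derived, 0.0149% and 0.0148% in endogenous and 0.0128% in control cells. These came from 1581 and 1590 donor-derived, 825 and 600 endogenous and 444 control cells, and members in 0 of them reached 1% of UMIs. The clusters were made from variable genes with no member set aside, so this 0 follows in part from the choice of cells. Cells were also chosen without clusters, by no Foxj1 UMI, Epcam seen and Ptprc not seen. Of those, 0 and 1 donor-derived, 3 and 1 endogenous and 2 control cells passed 1%. For the cells chosen by cluster, the summed level relative to Foxj1 cells of the same library was 2.61% and 1.34% in donor-derived cells. It was 1.18% and 1.22% in endogenous and 1.08% in control cells. The level in the other epithelial cells of the donor-derived library of day 40 (160.3 CPM, not TMM-scaled) was close to that of day 56 (149 CPM), of endogenous cells (149 and 148 CPM) and of control cells (128 CPM).

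Cfap20, Cfap36 and Cfap97 gave 7984 of the 10550 member UMIs in those cells, or 75.7%. Cfap97, related to the fly gene hemingway, had 30.2 and 26.8 CPM in donor-derived cells, against 26.7 and 21.1 CPM in endogenous ones, with 23.8 CPM in the control, which was 52.7% of its level in Foxj1 cells as the median over libraries. Cfap20, a protein of the inner junction of the doublet, had 62.3 and 58.6 CPM in donor-derived cells, against 43.8 and 42.9 CPM in endogenous ones, with 35.6 CPM in the control, or 16.9% of its Foxj1 cell level. Cfap36 had 33.2 and 36.2 CPM in donor-derived cells, against 33.1 and 33.8 CPM in endogenous ones, with 32.6 CPM in the control, or 12.8%. Both donor-derived libraries were the highest for Cfap20, whereas Cfap36 was level across the 5. The 3 genes were also read in immune-like cells, which make no motile cilia, with Cfap97 at 36.6 and 33.5 CPM and Cfap36 at 43.4 and 38.9 CPM in the 2 endogenous libraries. Rsph9 was at 2.67% of its Foxj1 cell level in other epithelial cells and at 0 and 1.16 CPM in the immune-like ones.

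The other 61 members summed to 21.5 and 18.4 CPM in donor-derived cells, against 36.6 and 41.3 CPM in endogenous ones, with 28.5 CPM in the control. Ciliated-like cells made up 2.42% and 6.76% of cells in the donor-derived libraries, against 17.8% and 15.9% in the endogenous ones, with 25.2% in the control. The 2 libraries with the fewest ciliated-like cells had the lowest sums, but the order did not hold elsewhere. The control had the most ciliated-like cells and a lower sum than both endogenous libraries. Between the donor-derived libraries, day 40 had fewer ciliated-like cells and the higher sum. The part of free RNA in these sums was not tested. Of 53 members at a mean of 20 CPM or more, 3 reached 10% of their Foxj1 cell level, and the other 50 had a median of 0.135% and a highest value of 2.67%. Rsph3a and Rsph3b were at 13.9% and 15.5% but lay under 10 CPM on average in Foxj1 cells.

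**Figure D5:**
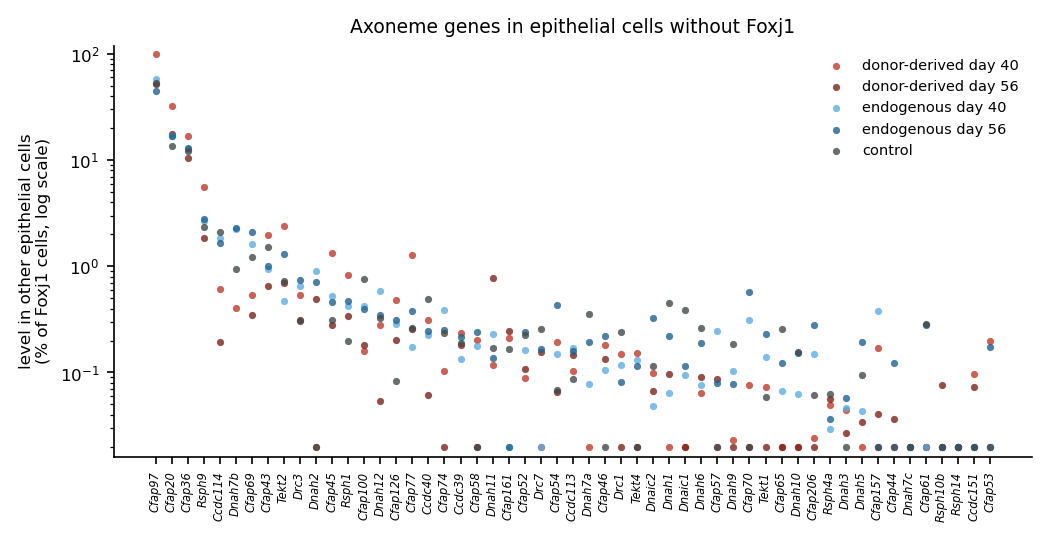
Level of each of 53 axoneme genes in other epithelial cells as a percent of its level in Foxj1 cells of the same library (log axis; values under 0.02%, zeros included, are drawn at 0.02%), with genes ordered by the median over 5 libraries. Cfap97, Cfap20 and Cfap36 stand apart at 52.7%, 16.9% and 12.8%, followed by Rsph9 at 2.67%.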

How the data were processed

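Transcripts of single cells were read in 5 10x Chromium libraries. The authors deposited UMI counts, 1 whole number for each gene in each barcode, over mouse and human genes together. Seurat, STARsolo and Cell Ranger are named, with GRCm38 and GRCh38, per the submitters' processing notes. Filters before deposit are not given in the sources used here. Barcodes over 10% human UMIs (192, in the control), under 500 genes or over 20% mitochondrial UMIs (38) and Scrublet doublets (48, 0.727%) were left out. Counts scaled to 10000 per cell, 2000 variable genes, 30 components, 15 neighbours and Leiden resolution 1.0 gave 24 clusters, named from marker lists that needed at least 3 detected markers. Epithelial clusters had Epcam in at least 50% of cells and Ptprc in fewer. Raw counts were summed per library over Foxj1 cells and tested with edgeR 4.0.16 in R 4.3.3 (filterByExpr, TMM over 5 libraries, robust quasi-likelihood). The SE is the log2 fold change without sign divided by the square root of F. A count of 0 was taken to allow up to 3 counts. Intervals are exact 95% ones and cover counting error only. Tools were Python 3.11.15, scanpy 1.11.5 and DESeq2 1.42.0, and the edgeR step was tested on simulated data.

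Libraries, not cells, are replicates, and the p-values measure the spread of 2 libraries per group that differ in day. The series design gives 1 recipient for each day, so the numbers pair them. Deviations from group means correlated at -0.0091 over 6615 genes. With 2 libraries per group, both pairs must give the same value, so this is 1 number and cannot show whether the recipient had an effect. Named members are those called, the 3 highest per role, those at 10% or more in other epithelial cells and the 6 furthest from the control per direction, 30 in all; others were added after their values were seen. Members and lists were chosen with earlier results of these data known. Coordinates are those of GENCODE on GRCm38, matched by identifier for all 65 members.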

Additional observations from a re-analysis of the deposited data

Results flagged for a closer look

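Cfap99, a cilia and flagella associated protein with few UMIs, differed in direction between the 2 recipients. It had 1.74 and 11.7 CPM in donor-derived Foxj1 cells on day 40 and day 56, 8.08 and 6.72 CPM in endogenous cells and 9.46 CPM in control cells. The log2 difference of donor-derived from endogenous cells, with 1 CPM added, was -1.73 on day 40 and 0.72 on day 56. The difference between the days was not tested.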

How the results depend on the processing

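The median log2 fold change of the tested members stayed negative under every alternative run, from -1.11 to -0.29. Members called lower numbered 0 in the reported fit, 1 with DESeq2 size factors, 7 with DESeq2, 4 without the filter on low counts, 2 with the replicate block, 4 with Foxj1 at 3 or more UMIs, 7 in ciliated-like clusters, 8 over all ciliated-like cells, 1 with doublets kept, 9 with thinned cells and 7 in ciliated-like clusters with the replicate block. No member was called higher or lower without TMM, with Foxj1 at 1 or more UMIs or with EGFP required. Leaving out 1 library gave 0 to 50 members lower and 0 to 4 higher. Over all genes, 32 were called higher and 20 lower. These counts became 37 and 34 with DESeq2 size factors, 205 and 187 with DESeq2, 90 and 139 without the filter, 132 and 97 with the replicate block, 0 and 0 with Foxj1 at 1 or more UMIs, 100 and 109 at 3 or more, 202 and 198 in ciliated-like clusters, 197 and 200 over all ciliated-like cells, 41 and 37 with doublets kept, 148 and 200 with thinned cells, 2 and 0 with EGFP required and 251 and 229 in ciliated-like clusters with the replicate block. They ran from 0 to 1247 higher and 0 to 1165 lower when 1 library was left out. The requirements for EGFP and for the block within ciliated-like clusters were added after seeing the data. The cause was not tested.

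Members with values near 0 changed sign. Cfap20 was at 0.028 without TMM, 0.073 in ciliated-like clusters, 0.075 over all ciliated-like cells, 0.29 with thinned cells and 0.046 in ciliated-like clusters with the replicate block (-0.48 to 0.25 with 1 library left out). Rsph1 was at 0.017 without TMM, 0.0089 at Foxj1 of 3 or more, and 0.13, 0.14, 0.30 and 0.087 under those last 4 settings (-0.74 to 0.37). Cfap126 was at 0.042, 0.051, 0.17 and 0.0094 under them (-0.75 to 0.24), and Cfap45 at 0.10, 0.094, 0.31 and 0.075 (-0.67 to 0.28). Cfap69 was at 0.084, 0.061 and, with the block, 0.053 (-0.73 to 0.27), and Cfap97 at 0.30 with thinned cells (-0.70 to 0.028). Cfap36 was at -0.0039 with DESeq2 size factors, -0.0023 with DESeq2, -0.043 without the filter, -0.042 with the replicate block and -0.23 at Foxj1 of 1 or more (-0.45 to 0.31). Rsph9 was at -0.0077 without the filter, -0.037 with the replicate block and -0.17 at Foxj1 of 1 or more (-0.55 to 0.42).

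The summed member share was 1.12% in endogenous and 1.14% in control cells at Foxj1 of 1 or more, and 1.20% in control cells of ciliated-like clusters. The level in other epithelial cells was 1.37% of that in Foxj1 cells in endogenous and 1.42% in control libraries when chosen without clusters, 1.24% and 1.34% in basal-like cells, and 0.965% and 0.945% in secretory-like cells. With doublets kept, only the Foxj1 cells change, since called doublets have no cluster.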
